A study of Homo sapiens with 33 samples.

Results

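The human HOX genes lie in 4 clusters, HOXA, HOXB, HOXC and HOXD, and encode the homeodomain transcription factors that give body segments their identity. The genes described here are every HOX gene that the platform annotation gives as the only symbol of a probe set. They number 28 of the 19775 genes on the arrays and are read by 44 of the 41091 probe sets with 1 symbol. By cluster, 10 of 10 HOXB genes, 9 of 9 HOXC genes and 8 of 9 HOXD genes were measured, but only 1 of 11 HOXA genes, HOXA2; the other HOXA genes and HOXD3 were not analysed here, and 3 probe sets annotated to both HOXD3 and HOXD4 were left out.

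Expression was measured with Affymetrix arrays in cultures of Karpas422, a line grown out of a diffuse large B cell lymphoma and EZH2 mutant by the series title. The EED226 groups received 5 µM EED226, which docks on the EED subunit and blocks Polycomb repressive complex 2 (PRC2), for 8 h or for 1, 2, 3 or 6 days, the DMSO groups received the solvent for the same times, and 1 further group was taken at 0 h, with its treatment not stated. Each of the 11 groups held 3 arrays, which the design text calls biological replicates, and all 33 arrays are of this 1 cell line. The design text calls the compound an EZH2 inhibitor, and EI1 is also named among the treatments; the groups follow the sample titles, none of which names EI1. Cells grew in RPMI with 15% serum, and with bulk RNA, fewer expressing cells and less RNA per cell cannot be told apart.

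As background, HOX genes are numbered by paralogue group from the 3' end of a cluster to its 5' end, and genes at the 3' end are switched on earlier and further towards the head of the embryo. PRC2 places methyl groups on lysine 27 of histone H3, and silent HOX clusters are textbook examples of chromatin held by this mark, opposed by the MLL complexes. In blood, genes of the 3' and central parts of the clusters act in stem and progenitor cells and are mostly turned down as cells mature.

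The values are RMA values on the log2 scale, so a difference of 1 is a doubling. Array medians over all probe sets ran from 4.06 to 4.18. The upper quartiles at day 6 were apart, with 6.68 to 6.74 on EED226 arrays and 6.10 to 6.55 on DMSO arrays. The lowest of them, 6.10, was that of DMSO day 6 replicate 3. Without EED226, on the 18 arrays at 0 h or with DMSO, 7 HOX genes lay above their own array's median on every array: HOXB3, HOXB4, HOXB5, HOXB7, HOXC4, HOXC5 and HOXC11. In contrast, 13 lay below it on every array and 8 lay above it on some arrays only. Probe sets differ in how they respond to the same amount of RNA, so the levels of different genes are not ranked. Of 7 measured B cell markers all were above the lowest array median in every group, and their mean was 10.72 to 10.87 on EED226 arrays and 9.98 to 10.31 on DMSO arrays at day 6.

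**Figure D1:**
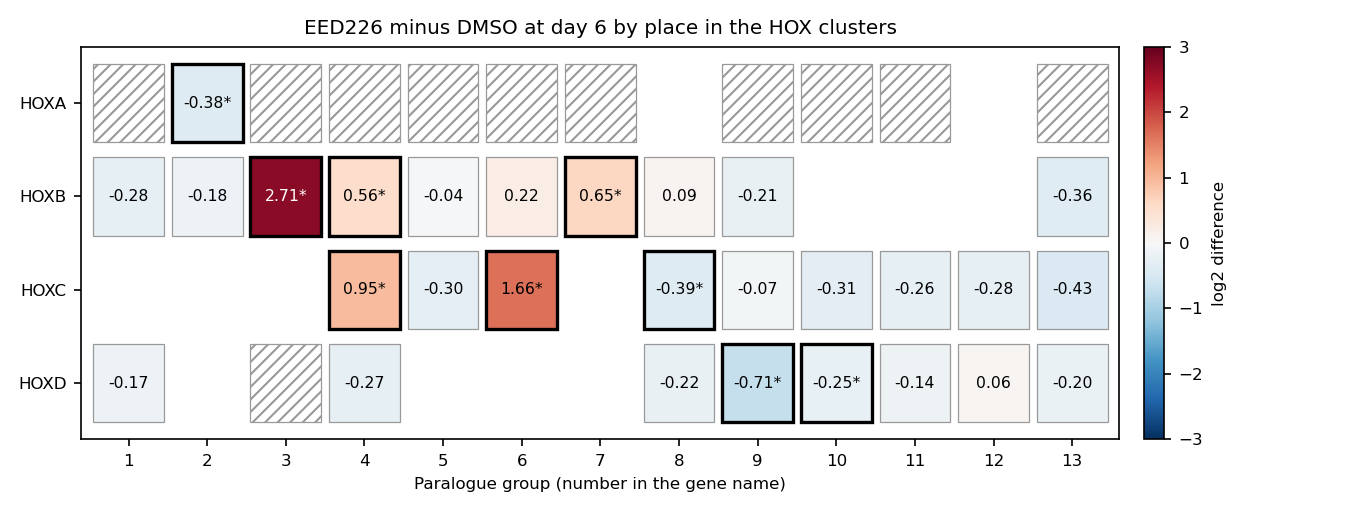
Log2 difference between EED226 and DMSO at day 6 for each HOX gene, placed by cluster (rows) and paralogue group (columns); red is higher and blue lower with EED226, a thick frame and a star mark genes that passed the test, and hatched cells are genes not analysed here. The 5 rises, between 0.56 and 2.71, lie in HOXB and HOXC at paralogue groups 3, 4, 6 and 7, and no gene of groups 8 to 13 rose.

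At day 6, 5 HOX genes were higher with EED226 and 4 were lower, while 19 did not pass the test. The rises were HOXB3, HOXB4 and HOXB7 in the HOXB cluster and HOXC4 and HOXC6 in the HOXC cluster, between 1.47-fold for HOXB4 and 6.54-fold for HOXB3. The falls were HOXA2, HOXC8, HOXD9 and HOXD10, between 0.25 and 0.71 in size on the log2 scale. All 4 had values near or under the array median, where a level may not be told from background, so the size of these falls is uncertain. A gene passed when its Benjamini-Hochberg adjusted p in limma, over all genes of the comparison, was under 0.05. At day 6, 51% of all genes passed, 23.7% higher and 27.3% lower, so 9 of 28 is a smaller share than the background. The median difference was -0.21 over the HOX genes and -0.11 over all genes. It was likewise -0.21 over the 16 HOX genes whose mean was below the lowest array median, and -0.14 over the 7511 genes as dim.

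HOXB3, which is expressed in blood stem and progenitor cells, had the widest change among the HOX genes at day 6. Its values were 7.78, 7.35 and 7.58 on the EED226 arrays, against 5.06, 5.04 and 4.48 on the DMSO arrays. The groups did not overlap, and every EED226 array lay more than 2 units above every DMSO array. The means were 7.57 ± 0.21 with EED226 and 4.86 ± 0.33 with DMSO (SD, n = 3 each), a difference of 2.71 ± 0.15 (SE) with a limma adjusted p of 9.47e-15. A second probe set of HOXB3 moved the other way: it had 4.14 ± 0.14 with EED226 and 4.73 ± 0.41 with DMSO and fell by 0.59 (adjusted p = 0.0026 over all probe sets). With the mean of both probe sets HOXB3 was higher by 1.06 and still passed. HOXB3's span in the RefSeq gene table overlaps that of HOXB4, and which transcripts each probe set reads was not analysed here.

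HOXC6, a central HOXC gene, had 5.70, 6.10 and 5.78 on the EED226 arrays at day 6, against 4.02, 4.48 and 4.11 on the DMSO arrays. All 3 EED226 values lay above all 3 DMSO values. Its means were 5.86 ± 0.21 with EED226 and 4.20 ± 0.24 with DMSO (SD, n = 3 each), a 3.16-fold rise (1.66 ± 0.16, limma adjusted p = 5.85e-10). It was the only one of the 5 that was not above the array median on every array without EED226; it lay above on 16 of those 18. Its single probe set, like the brightest of HOXB7, carries the suffix for probes shared by several transcripts.

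HOXC4, a factor known in B cells for binding the promoter of the antibody-diversifying enzyme AID, had 9.76, 9.76 and 9.80 with EED226 at day 6, against 8.74, 8.91 and 8.82 with DMSO. The groups did not overlap. The 3 EED226 values lay close together, with an SD of 0.02. The EED226 mean of 9.77 and the DMSO mean of 8.82 differed by 0.95 ± 0.07, or 1.93-fold (limma adjusted p = 3.54e-12).

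HOXB7 had 8.66, 8.76 and 8.56 with EED226 at day 6, against 7.97, 8.18 and 7.88 with DMSO. The groups were apart, by 0.65 ± 0.09 (1.57-fold, limma adjusted p = 3.67e-07). Of its other 2 probe sets 1 rose by 0.55 ± 0.08 and 1 was higher by 0.24 ± 0.13 without passing (adjusted p = 0.124). HOXB4, which enlarges the blood stem cell pool when it is overexpressed, had 7.56, 7.73 and 7.57 with EED226, against 7.0, 6.95 and 7.24 with DMSO. Again the groups did not overlap, and the difference was 0.56 ± 0.07 (1.47-fold, limma adjusted p = 2.01e-07). After a further quantile normalization over the 33 arrays it was 0.32 and still passed.

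**Figure D2:**
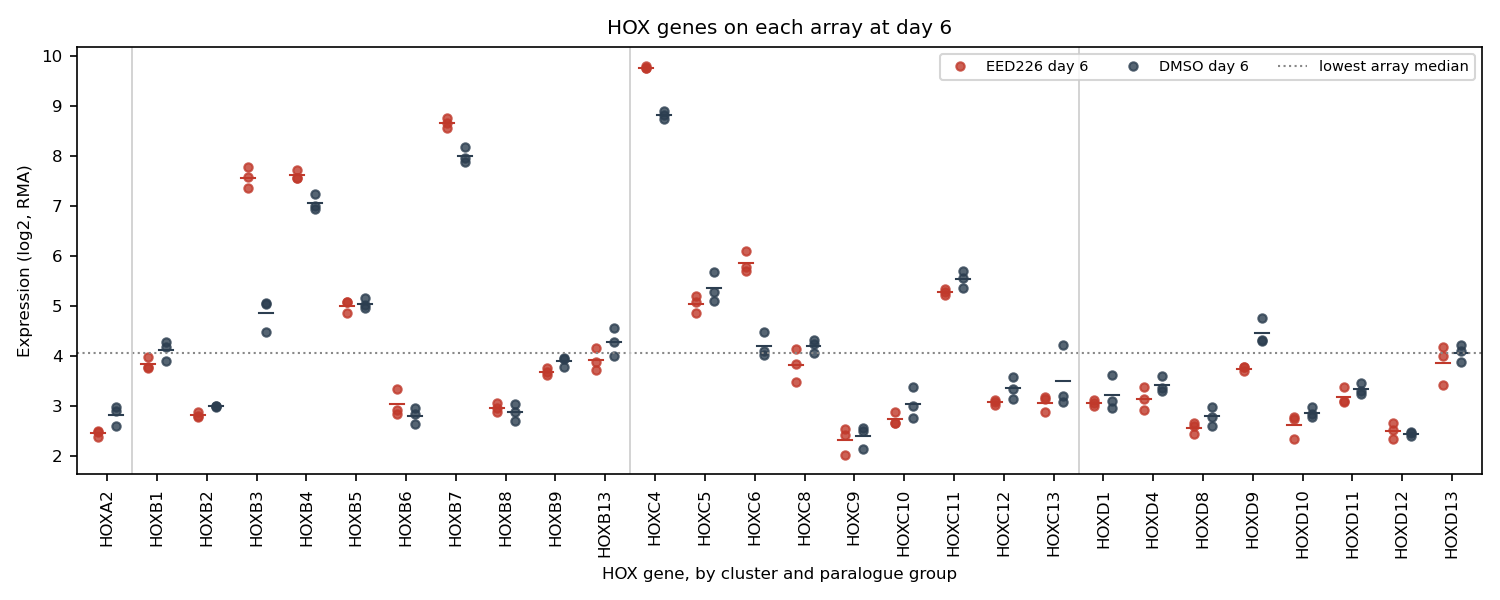
Log2 RMA values of the 28 HOX genes at day 6, by cluster and paralogue group; each point is 1 array, red for EED226 and dark for DMSO, bars are means of 3 arrays and the dotted line is the lowest array median. HOXB3, HOXB4, HOXB7, HOXC4 and HOXC6 have all EED226 points above all DMSO points.

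HOXD9, a posterior gene that patterns the limb, had 3.78, 3.70 and 3.77 with EED226 at day 6, against 4.29, 4.31 and 4.76 with DMSO. The groups did not overlap, and the EED226 values lay under the lowest array median of 4.06 while the DMSO values lay above it. The difference was -0.71 ± 0.16 (limma adjusted p = 0.000423), and its second probe set also fell, by 0.78 ± 0.24. HOXD10, another posterior gene of limb and spinal motor neurons, had 2.34, 2.77 and 2.74 with EED226 and 2.78, 2.97 and 2.84 with DMSO. The highest EED226 value lay only just under the lowest DMSO value. The difference was -0.25 ± 0.10 (limma adjusted p = 0.0413). Of its other 2 probe sets 1 fell by 0.45 ± 0.15 and 1 differed by -0.05 ± 0.13.

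HOXA2, the hindbrain and second pharyngeal arch gene and the only HOXA gene measured, had 2.49, 2.47 and 2.38 with EED226 at day 6, against 2.98, 2.91 and 2.60 with DMSO. The groups did not overlap, and the difference was -0.38 ± 0.12 (limma adjusted p = 0.00819). HOXC8, which patterns the trunk skeleton, had 3.83, 4.13 and 3.48 with EED226, against 4.23, 4.33 and 4.06 with DMSO. Its groups overlapped, and the difference was -0.39 ± 0.14 (limma adjusted p = 0.0259). HOXA2 and HOXD10 lay below the array median on every 0 h and DMSO array. A filter that keeps only genes above the median gene removed all 4 falls, and also HOXC6, before the test; the 4 other rises passed.

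Leaving out DMSO day 6 replicate 3, the array least like the others of its group (r as low as 0.986 across probe sets), ended the call of HOXD10 at day 6 (adjusted p = 0.0662). HOXD9 was then lower by 0.56 (a difference of -0.56, adjusted p = 0.00688) and the 5 rises lay between 0.58 for HOXB7 and 2.52 for HOXB3. The call of HOXD10 also ended after a further quantile normalization (adjusted p = 0.153) and on leaving out EED226 day 6 replicate 1 (0.376) or DMSO day 6 replicate 2 (0.154). RNA quality moved with the treatment too: the 3' minus 5' difference of the ACTB control probe sets was 3.50 to 4.14 on the EED226 arrays and 2.87 to 3.29 on the DMSO arrays at day 6. The groups were already apart at day 3, with 3.26 to 3.74 on the EED226 arrays and 3.05 to 3.16 on the DMSO arrays. The GAPDH difference was apart at day 2, with 0.281 to 0.366 and 0.238 to 0.264, and at day 3, with 0.303 to 0.435 and 0.231 to 0.245 (EED226 and DMSO arrays in that order). Its gap was widest at day 6, with 0.524 to 0.737 on the EED226 arrays and 0.235 to 0.285 on the DMSO arrays. With the ACTB difference as a covariate 13 HOX genes passed, 5 higher and 8 lower, and the 5 rises lay between 0.50 for HOXB4 and 2.81 for HOXB3. The share of all genes called in that fit is not given here, so these counts have no background beside them.

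By their level without EED226, 4 of the 7 HOX genes above the array median on every 0 h and DMSO array rose at day 6 and none of them fell. Of the 8 that lay above it on some arrays only, HOXC6 rose and HOXC8 and HOXD9 fell. Of the 13 that lay below it on every such array, none rose in limma, none was higher with an unadjusted p under 0.05, and HOXA2 and HOXD10 fell. The shares of all genes in these classes are not given here. The classes also use the DMSO day 6 arrays, which are the reference of the test, and a gene's class depends on how its probe set responds. Split by the mean over all arrays, 5 of 12 HOX genes above the lowest array median rose and 2 fell, where 4138 of 12264 genes rose and 4084 fell. None of 16 HOX genes below it rose and 2 fell, where 548 of 7511 genes rose and 1311 fell, so few rises among dim HOX genes are near the background.

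The rises sat in the 3' and central parts of the clusters. Among the 5 measured genes of paralogue groups 1 to 3, HOXB3 rose and HOXA2 fell at day 6. Among the 11 of groups 4 to 8, HOXB4, HOXB7, HOXC4 and HOXC6 rose and HOXC8 fell. Among the 12 of groups 9 to 13, none rose at any time in limma, also with an unadjusted p under 0.05, and HOXD9 and HOXD10 fell at day 6. The 12 posterior differences at day 6 ran from -0.71 for HOXD9 to 0.06 for HOXD12, with a median of -0.25. By cluster, 3 of 10 HOXB genes and 2 of 9 HOXC genes rose, as did none of the 8 HOXD genes, again with none at an unadjusted p under 0.05. Over all genes 23.7% rose and 27.3% fell, so the shares in HOXB and HOXC are near the background. These are counts of few genes, and whether the shares differ was not tested. Level went along with place: among the posterior genes only HOXC11 lay above the array median on every 0 h and DMSO array. No HOXD gene did. The part of level in the pattern by place was not tested.

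Genes next to each other differed in their calls. In HOXB, HOXB3 and HOXB4 rose, while HOXB2 (-0.18, adjusted p = 0.132), HOXB5 (-0.04, adjusted p = 0.802) and HOXB6 (0.22, adjusted p = 0.14) did not pass at day 6. A second HOXB6 probe set fell, by 0.34 (adjusted p = 0.0253). HOXB7 rose beside HOXB8 (0.09, adjusted p = 0.597). HOXB1, HOXB9 and HOXB13, the last known from the prostate and hindgut, had differences of -0.28, -0.21 and -0.36 and did not pass.

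In HOXC, HOXC4, HOXC5 and HOXC6 begin at the same base in the RefSeq gene table of GRCh38.p14, and HOXC5, between the other 2, did not pass: it had 5.21, 4.85 and 5.08 with EED226 at day 6, against 5.10, 5.28 and 5.67 with DMSO. The values overlapped, with a difference of -0.30 ± 0.14 (adjusted p = 0.0727). HOXC9 to HOXC13 did not pass either, between -0.43 for HOXC13, a hair and nail gene, and -0.07 for HOXC9. Without DMSO day 6 replicate 3 the difference was -0.07 for HOXC13, -0.14 for HOXC5, -0.15 for HOXC10 and 0.01 for HOXC9. In HOXD, HOXD1, HOXD4, HOXD8 and HOXD11 to HOXD13 did not pass, between -0.27 for HOXD4 and 0.06 for HOXD12, a group that includes the digit gene HOXD13. Without that array HOXD4 was at -0.18, HOXD8 at -0.12 and HOXD1 at 0.03.

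Promoter windows of 300 bases around the annotated gene start were at hand from RefSeq (GRCh38.p14) for 11 of the 28 HOX genes, as 10 distinct windows. HOXC4 and HOXC5 have 1 window in common, chr12:54016638-54016937 on the plus strand, which is shown because 1 of the 2 genes rose and the other did not. HOXC6, which begins at the same base in the gene table and also rose, had no window at hand. The windows of HOXD10 (chr2:176116528-176116827, plus strand) and HOXA2 (chr7:27102634-27102933, minus strand) belong to genes that were lower at day 6. Each runs 5′ to 3′, and capitals mark CG dinucleotides.
HOXC4 and HOXC5: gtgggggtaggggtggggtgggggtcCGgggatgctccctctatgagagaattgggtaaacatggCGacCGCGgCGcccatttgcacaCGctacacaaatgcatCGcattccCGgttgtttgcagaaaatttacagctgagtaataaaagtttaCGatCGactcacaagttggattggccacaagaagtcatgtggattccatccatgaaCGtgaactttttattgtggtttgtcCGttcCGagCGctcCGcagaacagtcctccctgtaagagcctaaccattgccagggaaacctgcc
HOXD10: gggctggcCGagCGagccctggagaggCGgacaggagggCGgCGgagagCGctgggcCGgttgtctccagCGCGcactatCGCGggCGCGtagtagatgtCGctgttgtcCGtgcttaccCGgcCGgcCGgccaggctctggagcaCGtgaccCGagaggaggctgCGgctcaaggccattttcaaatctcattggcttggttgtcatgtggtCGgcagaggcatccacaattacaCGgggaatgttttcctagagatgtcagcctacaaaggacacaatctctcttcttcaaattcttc
HOXA2: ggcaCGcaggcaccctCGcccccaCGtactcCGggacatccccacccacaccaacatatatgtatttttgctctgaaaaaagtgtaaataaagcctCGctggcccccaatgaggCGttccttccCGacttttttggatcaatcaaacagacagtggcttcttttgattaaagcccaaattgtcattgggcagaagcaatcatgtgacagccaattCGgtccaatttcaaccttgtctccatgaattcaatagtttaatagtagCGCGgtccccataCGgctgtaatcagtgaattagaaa

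The HOXC4 and HOXC5 window holds 15 CG, that of HOXD10 23 and that of HOXA2 11, against a median of 14 (quartiles 4 and 28) over 34943 RefSeq windows. The 10 HOX windows ranged from 4 CG for HOXD4 to 36 for HOXD1, neither of which passed the test at any time. The motif TGATTNAT, a composite site bound by HOX and PBX proteins together, was searched on both strands and found in the windows of HOXA2 and HOXD11, and in 2.8% of all windows. A match is a description of these letters and not a binding site.

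EED226 and DMSO were compared at each time, and the changes accrued over days. At 8 h no HOX gene passed in limma, none had an unadjusted p under 0.05, and no gene at all passed (0%). Differences at 8 h lay between -0.17 for HOXC5 and 0.23 for HOXA2. At day 1 HOXC4 alone rose in the fit without the replicate block, where 0.87% of all genes passed, 0.834% higher. In that fit 5 HOX genes had an unadjusted p under 0.05, and the share of all genes by that rule is not given here. At day 2, 5 HOX genes rose and HOXD10 fell, where 9.44% of all genes passed, 6.76% higher and 2.68% lower. At day 3 the same 5 genes, HOXB3, HOXB4, HOXB7, HOXC4 and HOXC6, were higher and none was lower, where 22.9% of all genes passed and 11.7% were higher. With the ACTB difference as a covariate 5 HOX genes were higher and 2 lower at day 2, and 5 were higher and 0 lower at day 3. The share of all genes in that covariate fit is not given here. These comparisons at single times share no arrays with each other, but all rest on 1 estimate of spread. The changes between neighbouring times given below use the arrays of both times, so they share arrays with these comparisons.

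HOXC4 had 8.86, 8.89 and 8.92 with EED226 at day 1, against 8.52, 8.66 and 8.60 with DMSO. The groups did not overlap, by 0.30 ± 0.07 (limma adjusted p = 0.0308). The call at day 1 rested on each of its arrays: leaving out any 1 of the 6 arrays ended it, with adjusted p-values between 0.0501 and 0.204 and differences between 0.26 and 0.33. It was also lost after a further quantile normalization (adjusted p = 0.0522) and in a fit of these 6 arrays alone (adjusted p = 0.169). At day 1 same-numbered replicates deviated together, and with the replicate number as a block 2 HOX genes passed, where 296 of 19775 genes did. They were HOXC4 (adjusted p = 0.014) and HOXB7 (0.28 ± 0.06, adjusted p = 0.0217). At day 2, where same-numbered replicates also deviated together, HOXD11 joined HOXD10 as lower with the block (-0.32 ± 0.10, limma adjusted p = 0.0482). This gave 7 calls, where 2311 of 19775 genes passed.

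**Figure D3:**
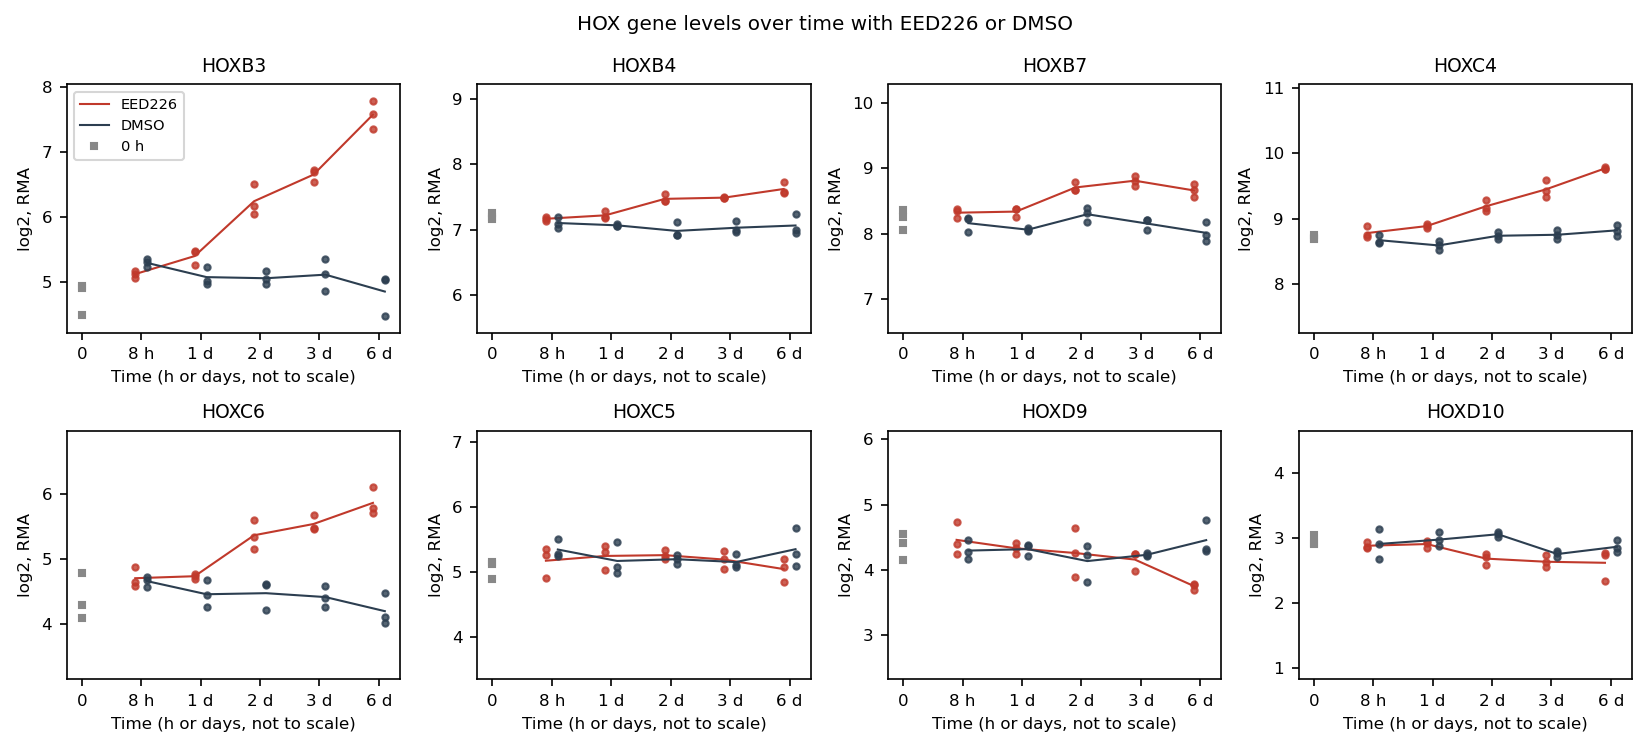
Log2 RMA values of 8 HOX genes against time in culture (the axis is not to scale), with EED226 in red, DMSO in dark blue and 0 h as grey squares; points are arrays and lines join group means. Each panel spans the same range of log2 units, so HOXB3 and HOXC6 climb most, the HOXC5 groups show no gap and HOXD9 drops at day 6.

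HOXB3 averaged 5.13, 5.40, 6.24, 6.65 and 7.57 with EED226 at 8 h and at 1, 2, 3 and 6 days, against 5.30, 5.08, 5.06, 5.12 and 4.86 with DMSO at these times and 4.79 ± 0.25 at 0 h. Its difference passed at day 2 (1.18 ± 0.15, adjusted p = 1.9e-06) and at day 3 (1.53 ± 0.15). It is 1 of 2 HOX genes whose difference changed between days 3 and 6, growing by 1.18 ± 0.21 (limma difference of differences, adjusted p = 9.57e-05), a change not called with the mean of both its probe sets. In that comparison 24.9% of all genes passed, 14.2% higher and 10.7% lower.

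HOXC6 averaged 4.71, 4.74, 5.36, 5.54 and 5.86 with EED226 at the same times, against 4.66, 4.46, 4.48, 4.42 and 4.20 with DMSO and 4.39 ± 0.36 at 0 h. Its difference was 0.89 ± 0.16 at day 2 and 1.12 ± 0.16 at day 3, both passed. HOXC4 averaged 8.78, 8.89, 9.19, 9.45 and 9.77 with EED226, against 8.67, 8.59, 8.74, 8.76 and 8.82 with DMSO and 8.72 ± 0.03 at 0 h. Both genes had a higher mean at each later time with EED226, while their DMSO means stayed within a narrower band. The step between days 3 and 6 did not pass for HOXC4 (0.26 ± 0.10, adjusted p = 0.0562) or HOXC6 (0.54 ± 0.22, adjusted p = 0.0757).

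HOXB7 and HOXB4 had much the same difference at day 3 as at day 6. HOXB7 averaged 8.32, 8.34, 8.71, 8.81 and 8.66 with EED226, against 8.16, 8.06, 8.30, 8.15 and 8.01 with DMSO and 8.22 ± 0.16 at 0 h. HOXB4 averaged 7.16, 7.22, 7.47, 7.49 and 7.62 with EED226, against 7.10, 7.06, 6.98, 7.03 and 7.06 with DMSO and 7.20 ± 0.05 at 0 h. The differences of HOXB7 were 0.41 at day 2 and 0.66 at day 3, and those of HOXB4 were 0.49 and 0.46, and all 4 passed. Their change between days 3 and 6 was -0.01 ± 0.12 for HOXB7 and 0.10 ± 0.10 for HOXB4, and neither passed.

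HOXD9 averaged 4.46, 4.33, 4.26, 4.16 and 3.75 with EED226, against 4.29, 4.32, 4.13, 4.23 and 4.46 with DMSO and 4.37 ± 0.20 at 0 h. It did not differ beyond the test up to day 3 (-0.07 ± 0.16), and its difference at day 6 was lower than that at day 3 by 0.63 (-0.63 ± 0.22, adjusted p = 0.036). That call was lost on leaving out any one of EED226 day 3 replicates 1 and 3, EED226 day 6 replicates 1 and 3, DMSO day 3 replicates 1 and 2 and DMSO day 6 replicate 3. HOXD10 averaged 2.88, 2.91, 2.68, 2.63 and 2.62 with EED226, against 2.91, 2.97, 3.06, 2.75 and 2.86 with DMSO and 2.95 ± 0.07 at 0 h. It fell by 0.37 ± 0.10 at day 2 (adjusted p = 0.0145), with 2.59, 2.71 and 2.75 on the EED226 arrays against 3.02, 3.06 and 3.09 on the DMSO arrays, and was not called at day 3 (-0.12 ± 0.10). At day 2 its call was lost without EED226 day 2 replicate 1 (adjusted p = 0.0744), without DMSO day 2 replicate 3 (0.0581) and with the mean of its probe sets (-0.12, 0.464).

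Between days 1 and 2 (background 0.576%) and between days 2 and 3 (0.511%), no HOX gene's difference changed in limma. An unadjusted p under 0.05 was found for 4 and 2 HOX genes, again without a share of all genes beside it. Over all 5 times together, an F test called 8 of 28 HOX genes (40.6% of all genes): HOXA2, HOXB3, HOXB4, HOXB7, HOXC4, HOXC6, HOXD9 and HOXD10.

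Culture with DMSO was followed against 0 h, and these comparisons share the 0 h arrays. No HOX gene passed in limma at 8 h or at 1, 2, 3 or 6 days, where 0%, 0.177%, 0.89%, 3.02% and 1.72% of all genes passed. With an unadjusted p under 0.05 there were 2, 0, 3, 2 and 2 HOX genes, and the share of all genes by that rule is not given here. The differences in DMSO ranged from -0.37 for HOXD4 at day 2 to 0.51 for HOXB3 at 8 h.

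Read probe set by probe set, 13 of 44 HOX probe sets passed at day 6, 6 higher and 7 lower, where 44.6% of all probe sets passed. More than 1 probe set was present for 13 HOX genes. Those of HOXD9 moved the same way, those of HOXB3, HOXB5, HOXB6 and HOXB8 differed in sign, and the 3 of HOXB7 were all higher with 2 passed. Those of HOXB1, HOXB9, HOXB13, HOXD1, HOXD4, HOXD10 and HOXD13 also had the same sign within each gene. By overlap alone, 5 HOX genes had all EED226 values above all DMSO values at day 6 and 7 had them below, where 23.7% and 28% of all genes did.

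**Figure D4:**
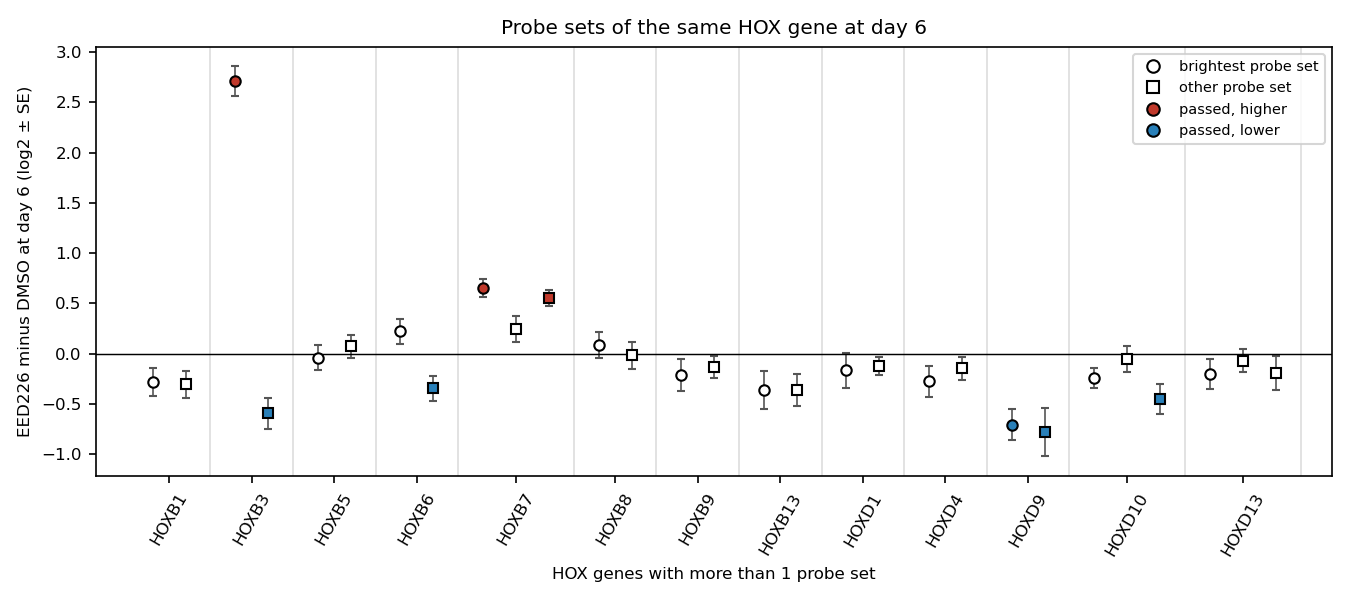
Difference between EED226 and DMSO at day 6 (log2, with limma SE) for the probe sets of the 13 HOX genes that have more than 1; circles are the brightest probe set, squares the others, and filled symbols passed with p adjusted over all probe sets, red higher and blue lower. The 2 probe sets of HOXB3 lie at 2.71 and -0.59, on opposite sides of 0.

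HOX proteins bind DNA with TALE-class partners, and their genes were followed beside the HOX genes. Of 8 partner genes measured, 3 rose at day 6 and none fell, with a median difference of 0.21. Over all genes 23.7% rose and 27.3% fell at day 6 with a median of -0.11, the background for this and the other lists. MEIS1, a TALE factor that works with HOX proteins in blood progenitors, had 8.07 ± 0.32 with EED226 and 5.11 ± 0.34 with DMSO at day 6 (SD, n = 3 each), a 7.78-fold rise (2.96 ± 0.16, limma adjusted p = 8.3e-15). It had passed at day 1 already (0.74 ± 0.16, adjusted p = 0.0188). PBX3 had 9.46 ± 0.16 with EED226 and 6.87 ± 0.41 with DMSO at day 6, a 6.01-fold rise that first passed at day 2 (0.61 ± 0.13). PBX2 rose by 0.85 ± 0.08, with 1 of 3 further probe sets pointing the other way.

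The 21 genes listed as activators of HOX transcription were split, 7 higher and 8 lower at day 6 (median -0.11). AFF1, a scaffold of the super elongation complex, had 9.04 ± 0.32 with EED226 and 3.79 ± 0.52 with DMSO, a difference of 5.26 ± 0.22, and 1 of 2 further probe sets pointed the other way. MLLT3, a reader in the same complex, rose by 2.83 ± 0.18 at day 6. WDR5, a core subunit of the MLL complexes, fell by 1.67 ± 0.13 and DOT1L, the histone H3 lysine 79 methyltransferase, by 1.20 ± 0.10. The 6 ParaHox genes, evolutionary sisters of the HOX clusters, gave no rise and 4 falls (median -0.34): CDX4 fell by 0.51, CDX2 by 0.42, PDX1 by 0.34 and GSX2 by 0.34. For CDX2 and PDX1 a further probe set pointed the other way.

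Inside the clusters, 13 of 27 listed noncoding or small genes were measured, and 2 rose and 3 fell at day 6. HOTAIR, a HOXC long noncoding RNA studied with PRC2, rose by 0.42 ± 0.15 at day 6, with means of 2.97 with EED226 and 2.55 with DMSO, both below the array median. HOXD-AS2 fell by 0.75 ± 0.13 and HOXB-AS1 by 0.62 ± 0.23, though a second HOXB-AS1 probe set pointed the other way. The probe set annotated to MIR10A fell by 0.39 ± 0.16 and cannot stand for the mature microRNA. HAGLR and HAGLROS, noncoding genes of the HOXD cluster, were named after their values were seen. HAGLROS had 7.52 ± 0.03, 7.86 ± 0.10, 7.75 ± 0.08 and 6.86 ± 0.22 with EED226 at 1, 2, 3 and 6 days, against 6.90 ± 0.09, 6.99 ± 0.10, 7.09 ± 0.07 and 6.94 ± 0.30 with DMSO. It passed as higher at 1, 2 and 3 days and not at 6 days (-0.08 ± 0.14). HAGLR rose by 0.52, 0.60 and 0.38 at 2, 3 and 6 days, with 1 of 2 further probe sets pointing the other way at each of them, while none of the 8 HOXD protein-coding genes measured rose.

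Next to the clusters, the nearest measured genes also differed from each other. Beside HOXA, SKAP2, a signalling adaptor, rose by 1.46 ± 0.10 at day 6 and EVX1, an even-skipped homeobox gene, was at -0.22 (adjusted p = 0.164). Beside HOXB, SKAP1 was at 0.08 and TTLL6 at -0.18, and neither passed. Beside HOXC, CALCOCO1 and SMUG1, a DNA repair enzyme, each rose by 0.38. Beside HOXD, MTX2 was at 0.05 on 1 side. On the other side EVX2 was not measured, and the next gene, LNPK, was at 0.20 (limma adjusted p = 0.0737). Neither MTX2 nor LNPK passed. Over 40 flanking genes measured, 14 rose and 10 fell at day 6 with a median of 0.06, beside 23.7% and 27.3% of all genes, with the widest rise in JAZF1 (3.69 ± 0.20) and further rises in CALCOCO2, an autophagy receptor (1.47), and SKAP2. The widest fall was in CBX5, heterochromatin protein 1 alpha (-1.33 ± 0.10). CBX5, SKAP2, CALCOCO2 and SMUG1 each had 1 further probe set that pointed the other way.

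**Figure D5:**
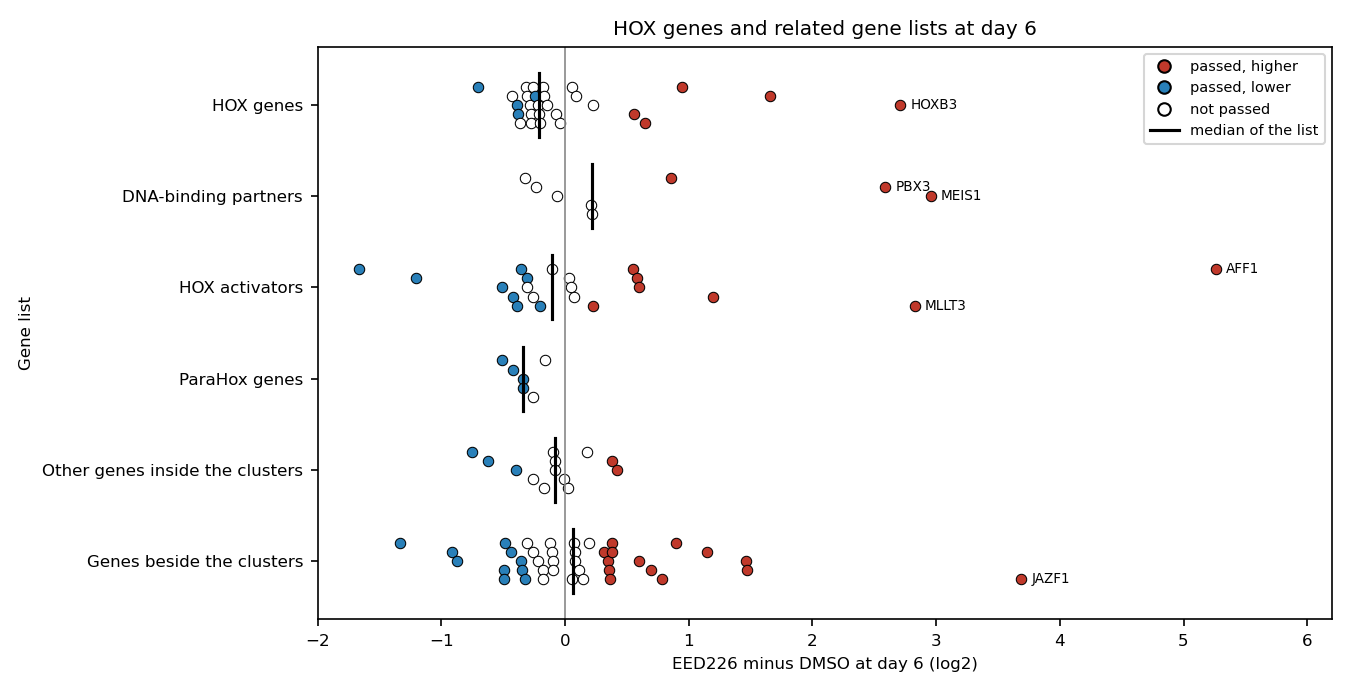
Difference between EED226 and DMSO at day 6 (log2) for the HOX genes and 5 related gene lists; each point is 1 gene, red passed as higher, blue passed as lower, white did not pass, and black bars are medians. The HOX median is -0.21 and that of the DNA-binding partners 0.21, with MEIS1, PBX3, AFF1, MLLT3 and JAZF1 named.

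Markers of other cell types were followed beside the HOX genes at day 6. Of 7 measured markers of blood stem and progenitor cells, CD34 and GATA2 were above the lowest array median in every group, with list means of 3.50 to 3.63 on EED226 arrays and 3.49 to 3.76 on DMSO arrays, and 1 of the 7 rose and 2 fell. Of 7 myeloid markers measured, LYZ alone was above it with EED226 at day 6 and ITGAM alone with DMSO, with list means of 3.33 to 3.44 on EED226 arrays and 3.29 to 3.30 on DMSO arrays. LYZ rose by 2.28 ± 0.20, with a second probe set pointing the other way, and 3 myeloid markers fell. Of the 7 B cell markers 5 rose and none fell. Of 8 T and NK cell markers, CD3D, CD3E, CD3G and CD5 were above it in both groups, with list means of 4.93 to 5.04 on EED226 arrays and 5.17 to 5.32 on DMSO arrays, and 3 of the 8 fell. Of 7 fibroblast markers COL1A1, DCN and THY1 were above it in both groups, with means of 4.91 to 4.99 on EED226 arrays and 5.01 to 5.58 on DMSO arrays, and 1 rose and 3 fell. Of 4 erythroid markers measured, HBB, EPOR and GATA1 were above it, with means of 4.79 to 5.05 on EED226 arrays and 4.99 to 5.53 on DMSO arrays, and 2 fell. The part of these markers in the HOX differences was not tested.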

How the data were processed

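The authors deposited 1 table of log2 expression values per probe set, which they computed by RMA (robust multi-array average), as the submitters' processing notes say; neither the software version nor the set of arrays processed jointly is known from those notes. RMA by design subtracts background, equalizes array distributions and combines the probes of a set, though upper quartiles still differed between the arrays here. RNA was labelled with a 3' IVT kit, per the labels' protocols, so values depend on RNA integrity. Arrays have no read depth, and their number limits the precision. The labels and files used here name no scan or extraction batch, and whether replicates were separate cultures is not stated.

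Of 54675 probe sets, 41091 had 1 gene symbol in GEO's platform annotation and 1801 had several. For 19775 genes the probe set with the highest mean over all arrays was kept, a choice that counts EED226 arrays and so can lean towards rising probe sets. The limma package (3.58.1, R 4.3.3) was fitted with 1 mean per group over all 33 arrays (22 residual degrees of freedom), two-sided. Values with ± are SD for levels and SE for differences. Counts by an unadjusted p have no share of all genes beside them, so they are not read as results about HOX genes. Figures were drawn with matplotlib 3.10.9. Gene order came from a RefSeq gene table of GRCh38.p14. The procedure was tested on simulated data.

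The HOX members, gene lists and tests were chosen with earlier results of these data known. Values per array are given for HOX genes that passed at day 6 with a difference of at least 1, that passed at 1 or 2 days, or that fell at day 6 by at least 0.5; HOXA2, HOXC8 and HOXC5 were added after their values were seen. From each list the 4 widest changes that passed at day 6 were eligible, plus MEIS1, PBX3 and the genes next to the clusters; the other genes and markers named were chosen after their values were seen.

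Same-numbered EED226 and DMSO arrays deviated together at 8 h (r of 0.199 to 0.318), day 1 (0.110 to 0.358) and day 2 (0.151 to 0.169). Together here means an r over 0.1 in every pair. Day 3 (-0.0088 to 0.233) and day 6 (0.0464 to 0.126) did not meet this rule, though every pair at day 6 was positive. Differences, counts and p-values are from the fit without a replicate block, which leaves out this pairing, unless the block is named.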

Additional observations from a re-analysis of the deposited data

Results flagged for a closer look

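2 HOX genes had a difference between EED226 and DMSO that itself changed between days 3 and 6 in limma. For HOXB3 it was 2.71 at day 6 and 1.53 at day 3, a change of 1.18 ± 0.21 (adjusted p = 9.57e-05), with all 3 EED226 values above all 3 DMSO values at both times. For HOXD9 it was -0.71 at day 6 and -0.07 at day 3, a change of -0.63 ± 0.22 (adjusted p = 0.036), with values that overlapped at day 3. With the mean of each gene's probe sets the rise in the HOXB3 difference was no longer called, leaving 0 higher and 1 lower.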

How the results depend on the processing

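The rises of HOXB3, HOXB4, HOXB7, HOXC4 and HOXC6 at day 6 passed under every alternative that gave a value (16 each, 15 for HOXC6), with differences from 0.32 for HOXB4 to 2.82 for HOXB3 and adjusted p-values up to 0.0141, and no result reversed. At day 1 the count of HOX genes passed was 1 in the fit as reported and 2 with the replicate block. It was 0 with quantile normalization again or only the arrays compared, and 0 to 1 on leaving out single arrays. The replicate block changed no other call of a HOX gene at 8 h or at 1 or 2 days than those of HOXB7 and HOXD11. With the block HOXC13 was also lower at day 6 (-0.43 ± 0.17, limma adjusted p = 0.0343), where 10508 of 19775 genes passed. The HOXC4 step between days 3 and 6 also passed with the block (0.26 ± 0.09, limma adjusted p = 0.0376), where 5621 genes did. A filter on dim genes, which tests 7 HOX genes, gave 4 at day 6, 4 in the F test, 1 for the change between days 1 and 2 and 6 of 11 probe sets. The count at day 6 was 9, and 8 to 12 on leaving out single arrays, where the F test gave 7 to 8. For the change between days 1 and 2, 1 HOX gene passed with trended eBayes, 2 with array weights, 1 with only the arrays compared and 0 to 1 on leaving out single arrays. For the change between days 3 and 6, 1 passed with probe set means and 1 to 4 on leaving out single arrays. Among probe sets at day 6, 8 passed with only the arrays compared, 20 with the ACTB covariate and 10 to 19 on leaving out single arrays. HOXD10 kept its call at day 6 in 8 of 15 alternatives. The causes were not tested, beyond the fewer genes or arrays in some settings. Except where a number of all genes is given, the counts in these settings have no share of all genes beside them. Dim HOX genes, near or under the array median, may not be told from background here, so a missing call does not show that they did not change.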
